A study of Mus musculus with 4 samples.

Results

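Processed pseudogenes took 5.06% to 7.14% of the gene-assigned reads in 4 long-read libraries of mouse neural stem cells, and copies of ribosomal protein mRNAs held 76.5% of these reads. The set holds every gene in the read table whose type in GENCODE M21 is processed pseudogene (1104 genes) or transcribed processed pseudogene (70 genes), which makes 1174 of the 14949 genes with an entry. The annotation lists 10237 genes of both types. Of the 1174 members, 1056 had at least 1 read and 118 had none, 459 had reads in all 4 libraries, and 148 carry a symbol that names the parent gene, as in Rpl3-ps1. The rule uses gene type alone and no measured value, though it was chosen with earlier results of these data known.

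A processed pseudogene arises when the machinery of a mobile element reverse-transcribes a mature mRNA and inserts the copy elsewhere in the genome. The copy therefore lacks the introns of its parent and, as a rule, the parent's promoter, and it gathers substitutions, gaps and stop codons with age. Abundant housekeeping mRNAs, above all those of ribosomal proteins, have left many such copies. A read from the parent mRNA and a read from a young copy differ by few bases or none, so the reads counted for a member here may come from the copy or from its parent, and the table alone cannot tell these apart.

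The cells were primary neural stem cells, labelled as neural cells of the brain, which per the study's methods came from E12.5 neocortices of floxed embryos and grew as neurospheres. Each group was a single library. The control, Tut1f/f, received an empty lipid nanoparticle (LNP). The other groups received an LNP that carried Cre mRNA for 3 days. They were Tut1f/f;Cre, then Trp53f/f;Cre, whose allele the labels spell p53f/f, and Tut1f/f;Trp53f/f;Cre, here the double library. The Tut1 protein is an enzyme that puts uridines on the end of U6 snRNA, and Trp53 encodes the p53 tumour suppressor. No library combined intact genes with Cre mRNA, so deletion and Cre exposure cannot be told apart against the control. Per the study, the cells came from separate floxed lines, and no library held floxed Trp53 without Cre mRNA. The Trp53 deletion label therefore coincides with the floxed Trp53 line. Libraries were made from PCR-amplified cDNA without molecular identifiers, so the intervals given here, at 95%, cover counting error only. All values below follow this order of libraries: Tut1f/f, Tut1f/f;Cre, Trp53f/f;Cre, double.

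The targeted genes had few reads. Tut1 had 37, 11, 14 and 27 reads, low in both single-deletion libraries and not low in the double library. Per the study, the deletion removes exon 2 from the Tut1 mRNA, so reads summed over the gene can come from the deleted allele too and do not check these labels. The names below mean the library labelled so, and directions rest on the labels. Trp53 had 175, 67, 10 and 19 reads, lowest in the libraries labelled as Trp53-deleted. Reads assigned to genes numbered 4244467, 2968653, 3432639 and 2863392, and a further 17.2%, 30.2%, 28.9% and 27.3% of all reads had no gene. The ribosomal RNA gene CT010467.1 took 18.7%, 9.75%, 8.91% and 5.46% of gene reads. Of 6 neural stem cell markers, Fabp7 (30043 to 39422 reads), Vim (1836 to 5030) and Sox2 (797 to 1350) had many reads. So did Hes1 (594 to 1586) and Nes (555 to 1007), but Pax6 had 35 to 60. In reads, Fabp7 and Vim were highest in the control, Hes1, Nes and Pax6 were lowest there, and Sox2 was lowest in the double library. Gfap, Hbb-bs, Aif1 and Cx3cr1 were at 0, Aqp4 had 0 to 4 reads and Hba-a1 had 6, 0, 0 and 0. The neuronal genes Map2, Tubb3 and Dcx had 186 to 275, 29 to 58 and 2 to 6 reads, and Olig2 of the oligodendrocyte lineage 998 to 1953. Xist had 0, 44, 49 and 0 reads while Ddx3y had 85, 0, 0 and 66, so the libraries also differed in the sex of the cells. In a bulk library, fewer cells of a type and less RNA per cell cannot be told apart.

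The sequences show how little separates the members with many reads from their parents. They were read from GENCODE M21 transcripts (GRCm38), positions count from the A of the parent's start codon, and a substitution gives the parent's base, the position and the pseudogene's base.
Rpl3-ps1 lies at chrX:13202571-13203780 on the plus strand between genes, and over the matched length it differs from Rpl3 by C57A and T786C, both of which leave the amino acid the same. They are shown because these 2 bases are all that separates the pair named by symbol whose division of reads differed most between libraries. Capitals mark the differing base, first in chrX:13202599-13202658 and then in chrX:13203328-13203387.
Rpl3-ps1 first window: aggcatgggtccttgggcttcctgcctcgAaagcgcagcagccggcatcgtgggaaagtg
Rpl3 first window: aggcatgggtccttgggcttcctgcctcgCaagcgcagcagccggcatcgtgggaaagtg
Rpl3-ps1 second window: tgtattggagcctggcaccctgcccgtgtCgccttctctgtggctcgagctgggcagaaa
Rpl3 second window: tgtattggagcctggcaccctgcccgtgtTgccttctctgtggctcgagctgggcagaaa
Rps26-ps1, in an intron of Wwp2 at chr8:107439131-107439579 on the minus strand, differs from Rps26 by 4 substitutions, of which C30T and G270A lie in the coding part and leave the amino acid the same. It took more reads than its parent in every library. Capitals mark both bases, in chr8:107439503-107439562 and chr8:107439263-107439322.
Rps26-ps1 first window: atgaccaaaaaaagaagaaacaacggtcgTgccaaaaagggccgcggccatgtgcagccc
Rps26 first window: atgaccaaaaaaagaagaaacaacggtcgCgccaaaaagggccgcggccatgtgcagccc
Rps26-ps1 second window: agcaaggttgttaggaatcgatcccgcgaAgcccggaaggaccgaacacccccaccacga
Rps26 second window: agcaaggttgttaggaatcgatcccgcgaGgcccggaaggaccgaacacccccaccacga

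Gm6136 lies in an intron of Dis3l2 at chr1:86908793-86909683 on the minus strand and carries 4 substitutions against Rpl6. Its stretch chr1:86909264-86909353 is shown because it holds the only one that changes an amino acid, G353A, along with the silent C408T, both in capitals.
Gm6136: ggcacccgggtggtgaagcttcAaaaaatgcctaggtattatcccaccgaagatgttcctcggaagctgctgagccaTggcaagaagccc
Rpl6: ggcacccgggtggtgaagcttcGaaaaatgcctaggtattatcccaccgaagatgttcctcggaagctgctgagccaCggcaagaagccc
Tmed10-ps, in an intron of Lyrm4, had reads mainly in the control library, and its stretch chr13:35991281-35991340 on the minus strand holds A214C (in capitals), which changes an amino acid of the parent.
Tmed10-ps: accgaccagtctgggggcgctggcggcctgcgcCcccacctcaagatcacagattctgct
Tmed10: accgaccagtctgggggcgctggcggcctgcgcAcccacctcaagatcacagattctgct

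Members held 214965, 189005, 245157 and 172141 reads, which is 5.06% (5.04 to 5.09), 6.37% (6.34 to 6.39), 7.14% (7.11 to 7.17) and 6.01% (5.98 to 6.04) of gene reads. The share was lowest in the control and highest in Trp53f/f;Cre, and all intervals were apart. Without the ribosomal RNA gene in the denominator, the shares were 6.23%, 7.05%, 7.84% and 6.36%, so that the double library then stood near the control. Reads were detected for 657, 809, 786 and 782 members, fewest in the control although it had the most gene reads. The same held for all genes, of which 13263, 13689, 13698 and 13620 had reads.

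The reads were concentrated in few members. Of the 821268 member reads, 13 members held 50% and 57 held 90%. There were 79 members with at least 1000 reads, 102 with 100 or more but under 1000, 266 with 10 to 99 and 609 with 1 to 9. Reads in a single library only were seen for 201 members. Most members with many reads were known to the table through isoforms named by a sequenced read rather than by an Ensembl transcript. There were 449 such entries and they held 95.1% of the member reads, whereas 926 plain Ensembl transcripts held 4.86%.

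Copies of ribosomal protein mRNAs dominated. Of the members, 497 had a gene for a cytosolic ribosomal protein as the closest coding gene, 455 of them had reads, and together they held 76.5% of all member reads. In every library they made up a like part of the member reads, namely 74.4%, 77.0%, 77.3% and 77.4%. Copies of chaperone and isomerase mRNAs (12 members, mostly through the cyclophilin gene Ppia) held 3.64%, copies of glycolytic mRNAs (41 members) 2.79%, and copies of mRNAs for mitochondrial energy metabolism (44 members) 2.71%. Copies of mRNAs for chromatin and RNA-binding proteins had 55 members but 0.529% of the reads, and copies of ferritin mRNAs 2 members and 0.000731%.

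The 12 members with the most reads held 48.8% of the member reads, and 11 of the 12 were copies of genes for ribosomal proteins, if Fau, which encodes a ubiquitin-like protein fused to a ribosomal protein, is counted among them. Gm14303, the copy of Rps29, had 20804, 20957, 28525 and 19211 reads against 3837, 4667, 5342 and 4301 for Rps29. The copy took several times the reads of its parent in each library. Gm4149, a copy of Rpl37a on chromosome 13 with the single substitution T198C, had 9138, 10116, 13390 and 9039 reads against 4073, 4348, 5300 and 4143. Rps13-ps2, identical to the coding sequence of Rps13, had 9995, 8580, 11258 and 8511 reads against 4164, 3919, 4691 and 3962. Here too the copy exceeded the parent throughout, and the library with most reads was Trp53f/f;Cre for all 3.

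Rps26-ps1 showed the largest excess over a parent among the pairs named by symbol, with 7381, 8715, 10637 and 8294 reads against 917, 624, 774 and 540 for Rps26. Gm9843, identical to the coding sequence of Fau, had 7834, 6572, 9689 and 6324 reads against 5035, 4462, 6340 and 4393. Gm10123 went the other way. This copy of the mRNA of cyclophilin A, a protein-folding isomerase, had 8411, 6611, 7880 and 6265 reads against 41072, 28160, 35100 and 32504 for Ppia, although the matched sequences are identical. Among members identical over the matched sequence, Gm9843 thus held more reads than its parent and Gm10123 fewer. Parent bases outside the match were not compared.

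The rest of the 12 held between 3481 and 7891 reads a library, except Gm6136. Rpl31-ps8 had 6766, 5981, 7891 and 5430 reads, more than its parent Rpl31 with 2579, 2252, 3051 and 2224. Rps6-ps4 had 6333, 5934, 6802 and 6111, close to Rps6 with 7498, 6101, 6834 and 7185. Gm10243, with the silent G156A against Rpl35a, had 4532, 5291, 7551 and 5270, below its parent at 8436, 8902, 12033 and 9390. Rps23-ps2, with C57T and the amino-acid-changing G316C, and Rpl10a-ps1, identical to the coding sequence of its parent, had the most reads in the control. Their reads were 6328, 4304, 5084 and 3481, and 6066, 4083, 5153 and 3607.

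**Figure D1:**
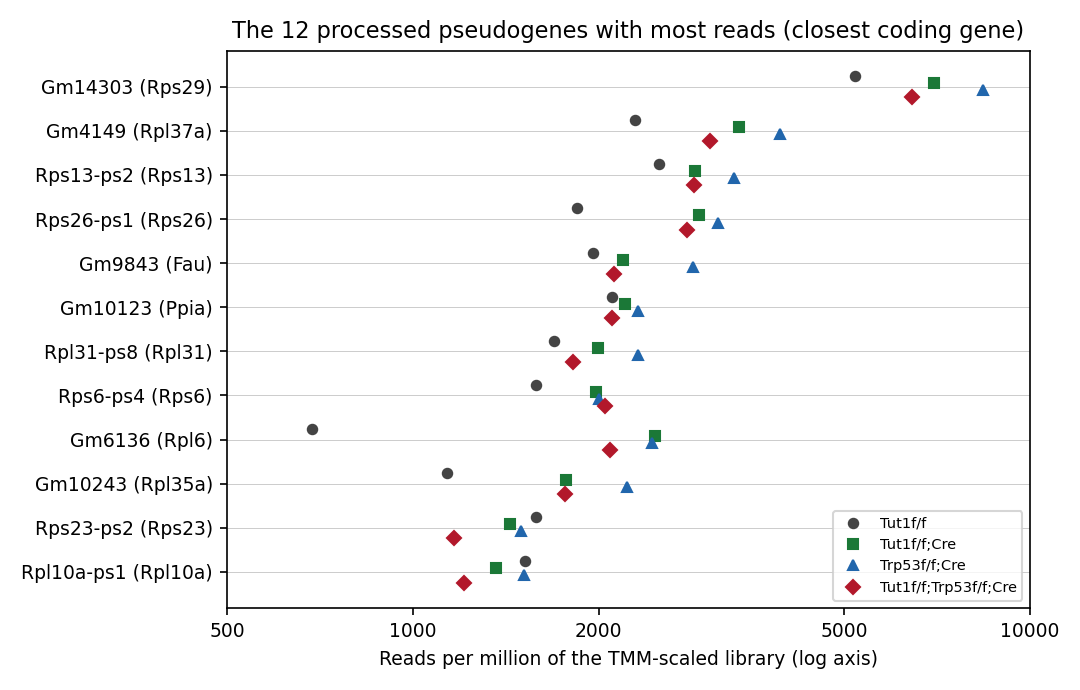
Reads per 1000000 gene reads (CPM, TMM-scaled, log axis) of the 12 processed pseudogenes with the most reads, 1 point for each of the 4 libraries. Gm14303 stood highest, between 5206 and 8388 CPM, and Gm6136 was the member of the 12 with the widest relative spread, from 686 CPM in Tut1f/f to 2464 in Tut1f/f;Cre.

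Gm6136 was the member of the 12 that differed most between libraries. It had 2743 reads in the control and 7380, 8312 and 6237 in the others, so all 3 libraries given Cre mRNA stood above the control. On the CPM scale the log2 ratio to the control was 1.84 (1.78 to 1.91) for Tut1f/f;Cre and 1.83 (1.77 to 1.89) for Trp53f/f;Cre, while the double library stood 0.23 below Trp53f/f;Cre (log2 ratio -0.23). Rpl6 itself was nearly level, at 2359, 2410, 2372 and 2725 CPM. The pseudogene share of the Rpl6 family was 26.8%, 52.1%, 52.4% and 44.8%. The host gene Dis3l2 had 50, 35, 24 and 38 reads.

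The number of reads went with closeness to the parent. A match over at least 80% of the member at 80% identity or more was found for 1035 members, which held 99.4% of the reads. The 55 members without any substitution or gap held 48.1% of the reads and the 220 others at 99% or above held 47.9%. The 378 members between 95% and 99% held 2.68%, the 198 between 90% and 95% held 0.467%, and the 139 with no coding match 0.588%. Median identity was 99.8% for members with at least 1000 reads, 99.4% for those with 100 or more but under 1000, 98.3% for 10 to 99, 94.8% for 1 to 9 and 95.2% for those without reads. Over the 936 members with reads and a match, identity and reads had a Spearman correlation of 0.545 and a Pearson correlation of 0.433, given as a description across genes that share libraries and, in many cases, a parent.

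The share of members with an open frame was lower in each class with fewer reads. Among members with a comparable frame, at least 95% of the parent's codons were uninterrupted in 62 of 70 (88.6%) with at least 1000 reads, 53 of 69 (76.8%) with 100 or more but under 1000, 96 of 163 (58.9%) with 10 to 99, 107 of 311 (34.4%) with 1 to 9 and 19 of 66 (28.8%) without reads. Of the coding substitutions, 83 of 141 (58.9%) left the amino acid the same in the class with at least 1000 reads and 305 of 617 (49.4%) in the next. The share was 39.1%, 38.9% and 38.3% in the other classes, which hold most of the substitutions. Substitutions that gained a stop codon were most frequent in the class with at least 1000 reads, at 8 of 141 (5.67%). They made up 2.59%, 2.52%, 2.75% and 3.21% in the classes with fewer reads, in order. These are properties of the annotated sequences and do not say that a member is translated.

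**Figure D2:**
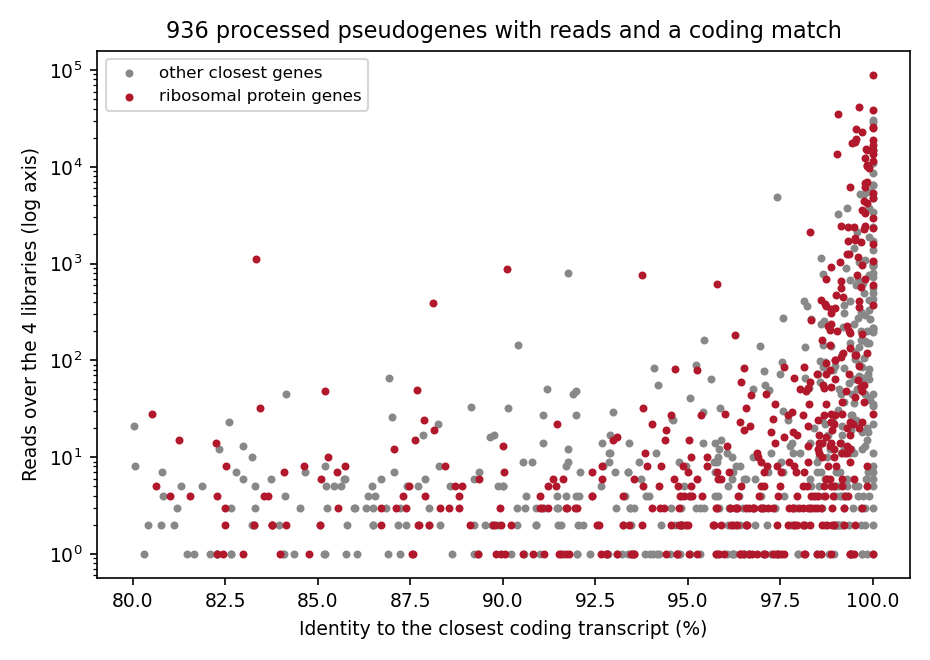
Reads over the 4 libraries (log axis) against identity to the closest coding transcript in percent, for the 936 members with reads and a coding match, with copies of ribosomal protein mRNAs in red. Nearly all members above 1000 reads sit at 99% identity or more, and members below 95% mostly had under 10 reads.

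The pattern had 5 exceptions, members with at least 1000 reads and under 99% identity or no match. Gm5526, a copy of the mRNA of the myosin light chain gene Myl6 at 97.4% identity, had 1702, 1140, 1135 and 888 reads. 2810025M15Rik, annotated with 8 exons opposite an exon of Rasal2 and without a coding match, had 820, 758, 969 and 879. Rpl37rt, with 5 annotated exons and 83.3% identity to Rpl37, had 291, 271, 368 and 192. Both of these are transcribed processed pseudogenes with several annotated exons. Gm6807, a copy of Rpl6 at 98.3%, had 709, 476, 555 and 370 reads, and Gm13456, a copy of the elongation factor gene Eef1a1 at 98.6%, had 444, 280, 299 and 128.

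By annotated type, 67 of 70 transcribed members (95.7%) had reads against 989 of 1104 others (89.6%), and their median was 22 reads against 5. The transcribed members held 10.3% of the member reads and were less like a parent, with a median identity of 95.5% against 97.1%. Beside Rps26-ps1, the leading ones were Gm15500, a copy of Rpl5 with 3241, 2043, 2631 and 1745 reads, and Gm10175, a copy of the ATP synthase subunit gene Atp5g2 with 2216, 2085, 2267 and 2089. Gm10275, a copy of Rpl12, had 1856, 1668, 2276 and 1228. Gm6472 on chromosome X, a copy of Rps7, had 1426, 1539, 2272 and 941 reads, and its log2 ratio between the double library and Trp53f/f;Cre was -1.08 (-1.20 to -0.97). On the CPM scale Gm10175 was lowest in the control, at 555, 696, 667 and 700, and Gm6472 was highest in Trp53f/f;Cre.

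By position, 528 members lay between genes and held 60.1% of the reads, and 578 lay in an intron of another gene and held 27.4%. A further 45 overlapped an exon of a gene on the opposite strand (5.41% of reads) and 23 an exon on the same strand (7.14%). For those 68 the reads of the neighbour and of the member may be mixed, since the handling of strand is not given in the sources used here. Gm4149, among the 23, overlaps the microRNA gene Mir682.

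Set against their parents by symbol, 63 pairs of a parent gene and its pseudogenes (146 members) had at least 20 reads in each library. Pooled over pairs, the pseudogenes took 17.7%, 18.7%, 19.6% and 17.7% of the reads of parent plus pseudogenes. The share was above 50% in all 4 libraries for 5 pairs and below 5% in all for 32, so the pooled value came from a minority of pairs. The difference between the highest and the lowest library had a median of 1.15 percentage points and exceeded 10 points for 6 pairs. Grouped instead by the closest coding gene, 376 families (969 members) gave 15.7%, 17.5%, 18.7% and 15.4%, with 38 families over 10 points.

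Some families divided their reads in a like way in each library. The pseudogene shares of the Rps29 family were 84.4%, 81.8%, 84.2% and 81.7%, and those of Rps13 were 70.7%, 68.7%, 70.6% and 68.3%. Rps26 had 88.9% (88.3 to 89.6), 93.3%, 93.2% and 93.9% (93.4 to 94.4), lower in the control than in the rest.

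Rpl3, which encodes a large-subunit ribosomal protein, behaved otherwise. Its pseudogenes took 6.98% (6.53 to 7.45) and 6.79% (6.22 to 7.40) of the family's reads in Tut1f/f and Tut1f/f;Cre, but 55.5% (54.4 to 56.6) in Trp53f/f;Cre and 51.2% (50.2 to 52.2) in the double library. Rpl3-ps1 had 823, 475, 4457 and 4753 reads and Rpl3 had 10994, 6566, 3595 and 4539. On the CPM scale Rpl3-ps1 stood at 206, 159, 1311 and 1592 and Rpl3 at 2751, 2192, 1057 and 1520. The copy was high and the parent low in the 2 libraries with the Trp53 deletion label, and their sum with Rpl3-ps2 spanned a narrower range, 2958, 2352, 2374 and 3115 CPM. Only these 2 libraries came from mice with floxed Trp53, so the deletion and the mouse line cannot be told apart. Rpl3-ps2, another copy, had 2, 3, 21 and 11 reads.

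Rpl3-ps1 was the one member, and the one gene, called by the fit across all genes. Tut1 and Trp53 status entered an additive model, fitted to the 9882 genes that passed the filter on low counts, 262 of them members. For Trp53 status, edgeR's quasi-likelihood test with Benjamini-Hochberg adjustment gave Rpl3-ps1 a log2 fold change of 3.00 (SE 0.429, adjusted p = 2.91e-08), and 0.0101% of all genes were called. Unadjusted p-values under 0.05 were reached by 17 members and by 147 genes in all. The fitted log2 fold change of Rpl3 was -0.95 (SE 0.374, edgeR adjusted p = 1) and that of Rpl3-ps2 2.68 (edgeR adjusted p = 1), so neither passed. DESeq2 also called Rpl3-ps1 alone, with an adjusted p of 5e-07.

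The fit has 1 residual degree of freedom, 1 library a group, and depends on single libraries. With Trp53 status alone in the edgeR model, the adjusted p of Rpl3-ps1 was 0.0485 with all 4 libraries, and Rpl3-ps1 lost its call without the double library (log2 fold change 2.84, edgeR adjusted p = 0.31, no member called), while 50 of 300 members (16.7%) and 1474 of 10567 genes (13.9%) were called without Tut1f/f;Cre. In the latter fit the control stood alone against both Trp53-deleted libraries, so that Trp53 status and Cre exposure coincide, and the lone library is assumed to vary like that pair. Counted on plain Ensembl transcripts only, Rpl3-ps1 had 73, 40, 315 and 321 reads and a log2 fold change of 2.70, the same direction without a call (edgeR adjusted p = 0.817). For Tut1 status 0% of genes and no member were called by edgeR, with unadjusted p-values under 0.05 for 13 members and 171 genes. DESeq2 called none either, with 6 members and 70 genes under 0.05 unadjusted.

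**Figure D3:**
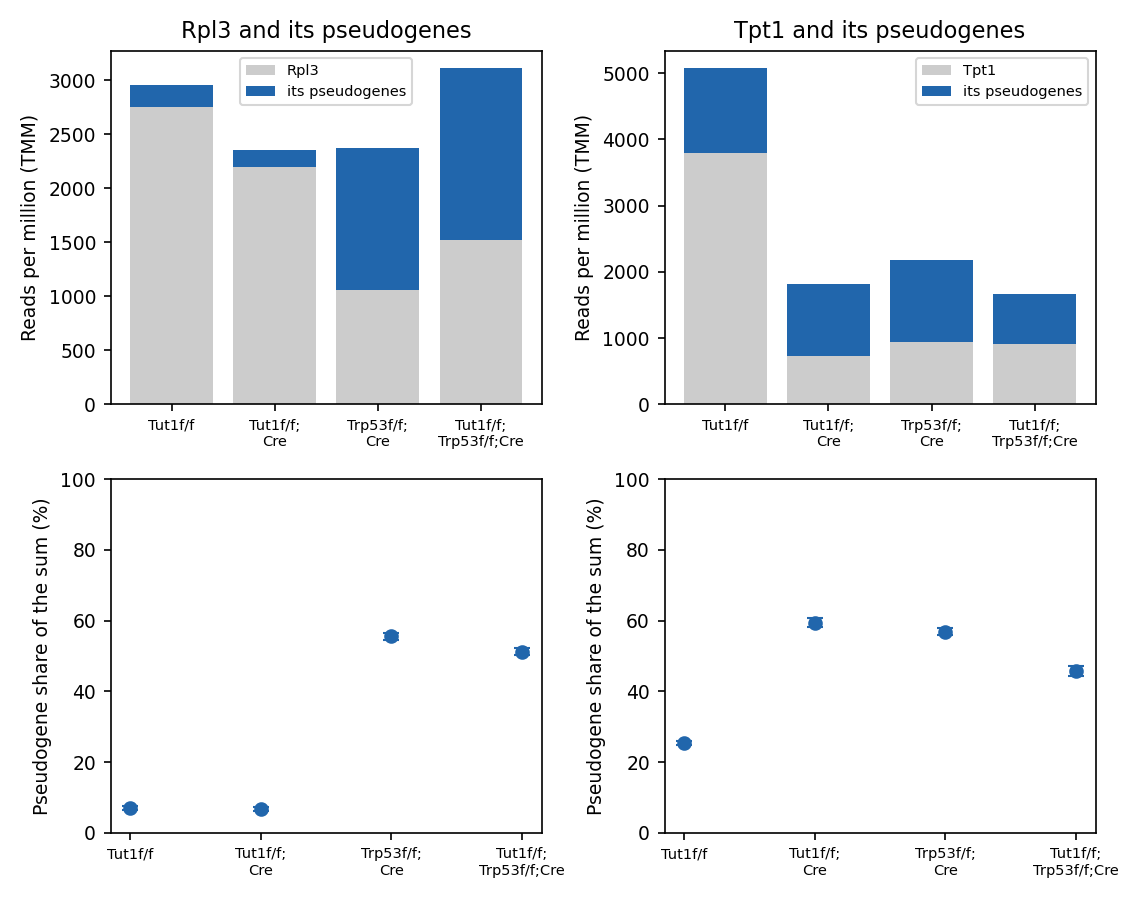
For the Rpl3 and the Tpt1 families, stacked bars give the CPM (TMM-scaled) of the parent gene and of its pseudogenes in the 4 libraries, and points give the pseudogene share of the sum in percent with 95% Wilson intervals. Rpl3 pseudogenes were at 206 and 160 CPM in the libraries without the Trp53 deletion label and at 1317 and 1595 with it, whereas in the Tpt1 family the parent went from 3796 CPM in Tut1f/f to 738 to 942 in the other libraries.

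As Rpl3-ps1 is X-linked, its reads were set beside the other members on that chromosome. The 65 members there held 4.09%, 3.9%, 5.58% and 6.11% of member reads, and without Rpl3-ps1 3.72%, 3.65%, 3.83% and 3.45%. The libraries with Xist reads were Tut1f/f;Cre and Trp53f/f;Cre, 1 with few and 1 with many Rpl3-ps1 reads.

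In the Tpt1 and Rps2 families the parent was far higher in the control than in the other libraries. Tpt1, which encodes the translationally controlled tumour protein, had 15168, 2210, 3205 and 2705 reads. Its copy Tpt1-ps3, on chromosome 6 and identical to the coding sequence, had 5146, 3233, 4234 and 2275. The pseudogene share was 25.3%, 59.4%, 56.9% and 45.7%, lowest in the control. On the CPM scale Tpt1 stood at 3796, 738, 942 and 906 and its pseudogenes at 1288, 1080, 1245 and 762.

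Rps2, of the small ribosomal subunit, stood at 2833, 580, 981 and 1090 CPM and its family of copies at 301, 240, 296 and 154, with shares of 9.61%, 29.3%, 23.2% and 12.4%. In both families the copies and their share were lower in the double library than in Trp53f/f;Cre. Rps2-ps10, the leading copy that carries the symbol of Rps2, had 427, 283, 384 and 167 reads, and the copies so named took 3.68%, 14.6%, 10.7% and 5.16% of the pair's reads. The Actg1 family, copies of the gene for cytoplasmic gamma-actin, had shares of 14.5%, 29.6%, 37.6% and 14.6%, high in both single-deletion libraries and alike in the control and the double library. Gapdh, the glycolytic gene with 32 members in its family, had shares of 13.6%, 21.6%, 24.1% and 15.2%, in the same order. These parents too were highest in the control, and the copies were lowest in the double library. Actg1 stood at 3148, 1114, 886 and 1556 CPM and its copies at 533, 469, 533 and 267. Gapdh stood at 6548, 3563, 4314 and 4933 CPM and its copies at 1033, 981, 1369 and 883.

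Among the smaller symbol pairs, Morf4l1-ps1, a copy of a chromatin gene with the silent substitutions C519T and C957T, had 239, 263, 323 and 271 reads against 1212, 735, 633 and 776 for Morf4l1. On the CPM scale the copy was lowest in the control (59.8, 87.8, 95 and 90.8) and the parent highest there (303, 245, 186 and 260). Nudc-ps1, a copy of a gene for a dynein-associated protein, had 350, 231, 259 and 192 reads against 670, 656, 895 and 735, and its share of 34.3%, 26.0%, 22.4% and 20.7% was highest in the control. Trmt112-ps2, identical to the coding sequence of a gene for a methyltransferase cofactor, had 202, 163, 240 and 120 reads against 211, 123, 161 and 138.

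Across families, with all isoforms counted, the double library most often had the lowest pseudogene share. Of 125 closest-gene families with at least 100 pseudogene reads, the share in the double library was lower than in Trp53f/f;Cre in 111, with intervals apart in 76 and the reverse in 1, and the median difference was -2.79 percentage points. Against Tut1f/f;Cre it was lower in 114, with intervals apart in 65 and the reverse in 2, and the median was -2.21 points. The comparisons share the double library and are not independent. Its share was the lowest of the 4 libraries in 86 families and the highest in 3, while the control was highest in 53 and lowest in 27. Against the control, Tut1f/f;Cre was higher in 60 and lower in 64, and Trp53f/f;Cre higher in 66 and lower in 58.

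Among the 67 families with at least 1000 pseudogene reads, the double library was lower than Trp53f/f;Cre in 66 and lower than Tut1f/f;Cre in 65. The exceptions were Rps26 in both comparisons and Rpl3 against Tut1f/f;Cre. Without isoforms named by a read, the families split about evenly against Trp53f/f;Cre, and the pattern was weaker against Tut1f/f;Cre. Counted on plain Ensembl transcripts only, which leaves fewer families, the share was lower in 55.0% and 72.5% of 40 families, in place of 88.8% and 91.2%, and the share of gene reads in members was then 0.326%, 0.402%, 0.427% and 0.436%, highest in the double library. How such isoforms were assigned to a pseudogene is not given in the sources used here, and its part in the difference was not tested.

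**Figure D4:**
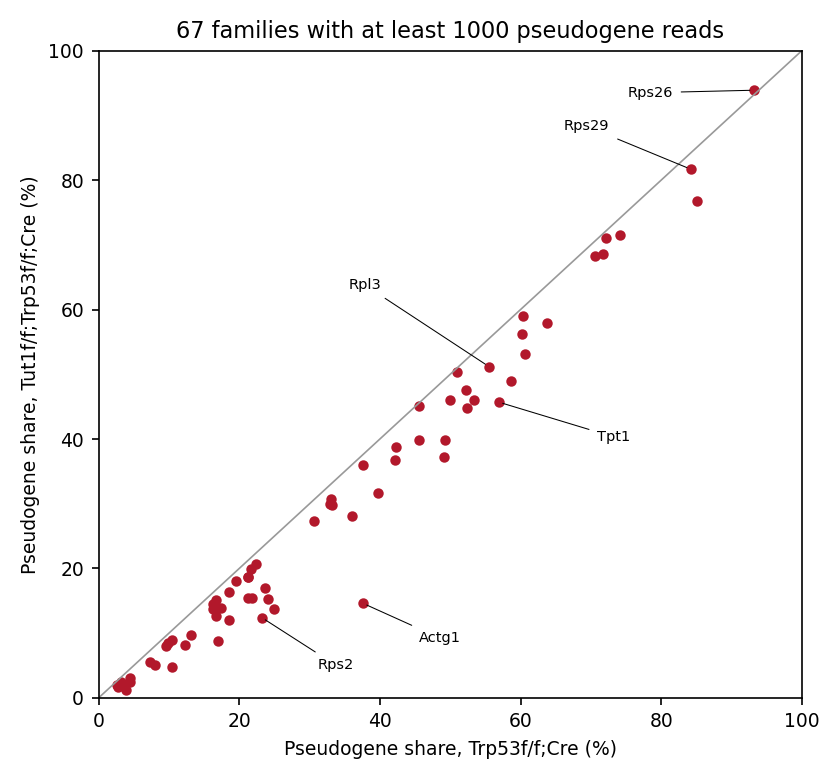
Pseudogene share of the reads of parent plus pseudogenes, in percent, in the double library (vertical) against Trp53f/f;Cre (horizontal), 1 point for each of the 67 families with at least 1000 pseudogene reads, with the line of equal shares. All families but Rps26 lie below the line, and Actg1 lies farthest from it, at 14.6% against 37.6%.

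Levels of the 262 members that passed the count filter were also compared between libraries, as ratios of CPM without a test, since each group had 1 library. A gene was counted when the ratio was at least 2-fold and its interval excluded no change. The 4 comparisons share libraries with each other. Tut1f/f;Cre against the control gave 32 members higher (12.2%) and 23 lower (8.78%), near or under the background of 13.1% and 12.8% of all genes, and the median log2 ratio was 0.05 for members and 0.02 for all genes. Trp53f/f;Cre against the control also gave 32 higher and 23 lower, where the background was 13.2% and 14.3%. The balance against the control depended on the rule. With at least 20 reads over both libraries in place of the count filter, 22 were higher and 30 lower in Tut1f/f;Cre (8.49% and 11.6%, against 11.7% and 14.2% of all genes). In Trp53f/f;Cre they were 26 and 30 (9.59% and 11.1%, against 12.2% and 15.6%), so lower outnumbered higher among all genes too. At 3-fold, 22 were higher and 9 lower in Tut1f/f;Cre (8.4% and 3.44%, against 6.41% and 5.28%), and 24 and 6 in Trp53f/f;Cre (9.16% and 2.29%, against 6.25% and 6.61%), where the higher share stood above the background.

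Between the libraries given Cre mRNA the members stood lower in the double library. Against Trp53f/f;Cre, 27 members (10.3%) were lower and 3 (1.15%) higher, where 3.01% of all genes were lower and 4.07% higher. The median log2 ratio was -0.38 for members and -0.02 for all genes, and 211 of the 262 were below 0. Against Tut1f/f;Cre, 16 (6.11%) were lower and 4 (1.53%) higher, with a background of 2.52% and 2.06%, and the medians were -0.30 and 0.00. At 3-fold the counts shrank to 3 lower and 2 higher against Trp53f/f;Cre (1.15% and 0.763%, against 0.708% and 1.15% of all genes), and to 5 and 3 against Tut1f/f;Cre (1.91% and 1.15%, against 0.769% and 0.607%). The coding genes closest to the tested members did not stand lower, with a median of 0.05 over 146 genes against Trp53f/f;Cre and 0.12 against Tut1f/f;Cre. Passing the filter needs reads in some library, so the 262 do not stand for all 1174 members.

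The difference between the double library and Trp53f/f;Cre had a median of -0.33 for 41 tested members identical to a coding transcript, -0.38 for 127 at 99% or more and -0.65 for 84 below 99%, and it was 0.05 for 10 without a match. Of these, 0, 9, 18 and 0 members were counted as lower. Against Tut1f/f;Cre the medians were -0.16, -0.26, -0.53 and 0.19, with 2, 2, 12 and 0 members lower. A lower median for members below 99% was not particular to the double library. Against the control the medians were 0.19, 0.06, -0.28 and 0.98 for Tut1f/f;Cre and 0.29, 0.23, -0.34 and 0.78 for Trp53f/f;Cre.

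**Figure D5:**
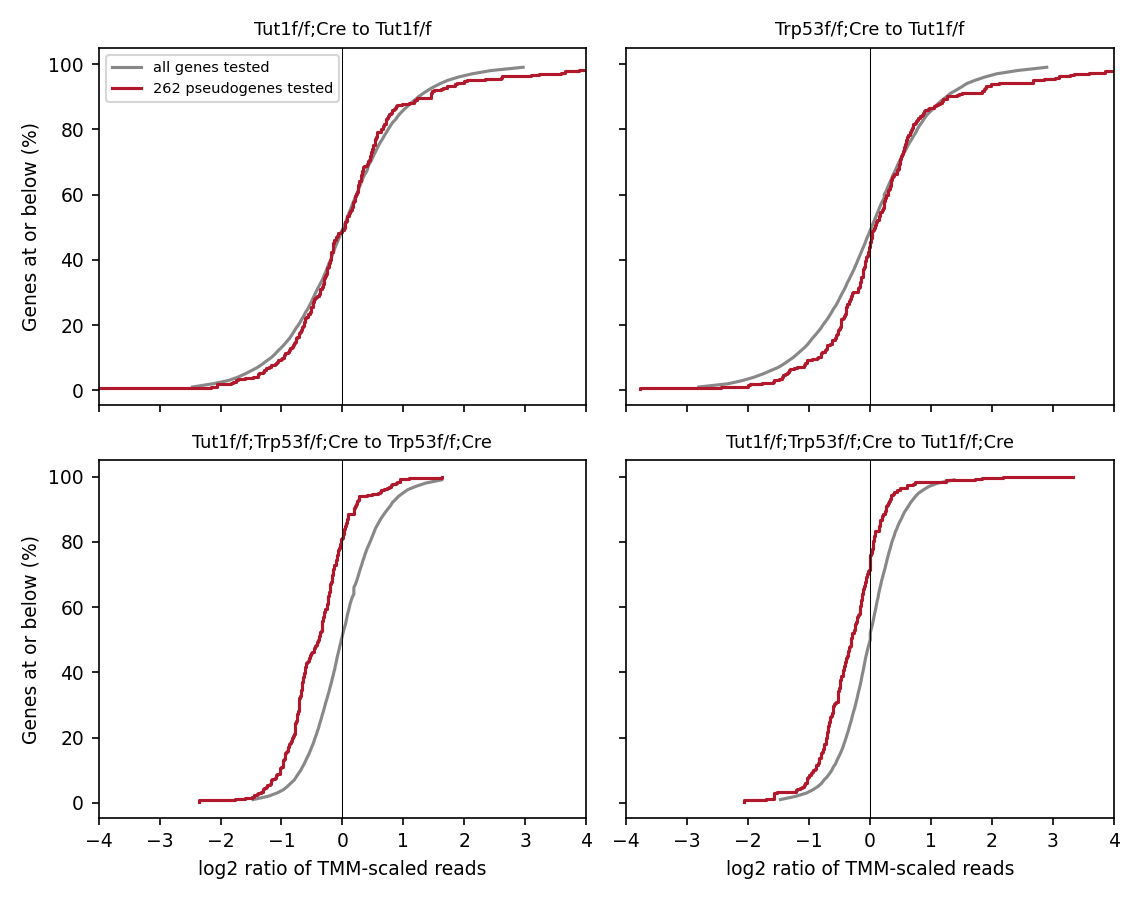
Cumulative percent of the 262 tested members (red) and of all 9882 tested genes (grey) against the log2 ratio of CPM, 1 panel for each of the 4 comparisons. In both comparisons of the double library the curve of the members lies to the left, with medians of -0.38 against Trp53f/f;Cre and -0.30 against Tut1f/f;Cre, while the curve of all genes is centred near 0.

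Among members with the widest differences from the control, Gm12607 was nearly absent there. This old copy of Rpl17 (88.1% identity, 57 substitutions, 25 of 184 codons open), in an intron of the nucleoside phosphorylase gene Mtap, had 2, 114, 153 and 121 reads, and its log2 ratio to the control was 6.25 (4.36 to 9.31) for Tut1f/f;Cre and 6.49 (4.61 to 9.55) for Trp53f/f;Cre. Mtap had 250, 96, 163 and 135 reads, highest in the control. The member was high in all libraries given Cre mRNA and close to 0 without it.

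Gm15739, without a coding match and in an intron of the Mediator kinase gene Cdk8, had 1, 16, 21 and 58 reads. It was highest in the double library, with a log2 ratio of 1.65 (0.91 to 2.45) to Trp53f/f;Cre and 1.86 (1.04 to 2.76) to Tut1f/f;Cre, while Cdk8 had 37, 59, 63 and 50 reads. Gm12607 and Gm15739 were each counted through a plain Ensembl transcript.

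Tmed10-ps went the other way. A copy of the gene for a cargo receptor of the early secretory pathway, with 4 substitutions, it had 120, 4, 7 and 20 reads, and log2 ratios to the control of -4.49 (-6.39 to -3.10) for Tut1f/f;Cre and -3.87 (-5.21 to -2.78) for Trp53f/f;Cre. Tmed10 was nearly level, with 673, 560, 659 and 551 reads, or 168, 187, 194 and 185 CPM. The host Lyrm4 had 48, 60, 56 and 44 reads, or 12, 20, 16.5 and 14.7 CPM, lowest in the control. Gm12350, a copy of the mitochondrial gene Chchd2, had 54, 13, 8 and 4 reads, and Gm5586, a copy of Rps3a1, had 44, 7, 12 and 10, both highest in the control.

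Of the members that stood lower in the double library, Gm4332, a copy of Rps20 with the silent G324A, had 138, 242, 441 and 148 reads, and its log2 ratio to Trp53f/f;Cre was -1.39 (-1.67 to -1.12). Gm12366, a copy of Rps2 in an intron of C9orf72, had 97, 37, 53 and 18 reads, and Gm10224, a copy of Rpl15, had 103, 51, 63 and 22. Gm11478, in an intron of Vmp1 and closest to the gene model Gm45713, had 449, 128, 144 and 55. These 3 were highest in the control and lowest in the double library. Gm4366, a copy of the elongation factor gene Eef1g, was an exception with 51, 33, 18 and 34 reads, lowest in Trp53f/f;Cre, and a log2 ratio of 1.11 (0.24 to 2.02) between the double library and Trp53f/f;Cre.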

How the data were processed

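Per the labels, total RNA of cultured neural cells was sequenced as Nanopore PCR cDNA. The authors deposited 1 table of isoforms with whole-number read counts, not normalized, for the 4 libraries (3936827 to 5125888 reads). The submitters' processing notes name mm10, and the study names minimap2, an Ensembl transcriptome and FLAIR for long reads of dissected pallium. The aligner, the counter and the filters behind this table are not given in the sources used here. Entries without a gene (17.2% to 30.2% of reads) stayed out of library sizes and tests. The members, the gene lists and the tests were chosen with earlier results of these data known.

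Counts were summed per gene, and gene types, positions and transcripts came from GENCODE M21 on GRCm38. Closest coding genes were found with BLAST+ 2.17.0 (word size 16, at least 80% coverage and identity). CPM are reads per 1000000 gene reads with TMM scaling (factors 0.946, 1.01, 0.995 and 1.05). Genes past the default filter of edgeR 4.0.16 (R 4.3.3) entered its quasi-likelihood test (additive in Tut1 and Trp53 status, 1 residual degree of freedom, adjusted p under 0.05 and at least 2-fold), with DESeq2 1.42.0 as the other tool. The edgeR test for Trp53 status was tried on simulated data. Intervals are Wilson intervals for shares and exact conditional binomial intervals for ratios, at 95%. Medians of ratios add 0.5 reads.

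The members named are the 12 with the most reads, those called by edgeR, those of the 8 symbol pairs with the widest span, the 5 transcribed members with the most reads, and up to 2 per direction and comparison among those past the ratio rule with at least 50 reads over both libraries, of which 1 is not reported here. Others were named after their values were seen: members with at least 1000 reads but under 99% identity, Rpl3-ps2, and the Rps29, Rps13, Rps26, Rpl6, Actg1 and Gapdh families. Families by closest coding gene were added after seeing the data. Alternatives were another scaling, no count filter, a 3-fold rule, a 99% interval, plain transcripts only, other denominators and leaving out each library.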

Additional observations from a re-analysis of the deposited data

Results flagged for a closer look

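Tmed10-ps, with 120, 4, 7 and 20 reads, was past the ratio rule in opposite directions under the same label contrast. Its log2 ratio for the Tut1 label was -4.49 without and 1.70 with the Trp53 deletion label, a difference of 6.19. For the Trp53 label it was -3.87 without and 2.33 with the Tut1 deletion label, a difference of 6.2. Gm4332, with 138, 242, 441 and 148 reads, had log2 ratios for the Tut1 label of 1.23 without and -1.39 with the Trp53 deletion label, a difference of -2.62. Each value compares single libraries, the comparisons share libraries, and the differences were not tested.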

How the results depend on the processing

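No paired analysis was possible because each group was 1 library. Every comparison of libraries rests on 1 library a group, the count intervals leave out the spread between cultures, and a member identical to its parent cannot be told from it over the matched part of a read. The count of families with a lower share in the double library, all its alternatives and the grouping by closest coding gene were chosen after seeing the data.

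For the share of gene reads in processed pseudogenes, taking all reads as the denominator gave 4.19%, 4.44%, 5.08% and 4.37%, leaving out the ribosomal RNA gene 6.23%, 7.05%, 7.84% and 6.36%, the processed type alone 4.57%, 5.68%, 6.41% and 5.38%, plain transcripts 0.326%, 0.402%, 0.427% and 0.436%, leaving out members in an exon of another gene 4.41%, 5.55%, 6.25% and 5.30%, and leaving out the member with the most reads 4.6%, 5.70%, 6.36% and 5.38%. Trp53f/f;Cre was highest in all of these except on plain transcripts, where the double library was. For the pooled pair share, pairs without ribosomal protein parents gave 14.5%, 16.6%, 18.4% and 12%, leaving out the top pair 15.9%, 16.9%, 17.7% and 15.9%, plain transcripts 0.913%, 0.917%, 0.964% and 1.01%, the median over pairs 3.26%, 3.33%, 3.23% and 2.15%, and the closest-gene families 15.7%, 17.5%, 18.7% and 15.4%.

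With a 3-fold rule, 9, 6, 3 and 5 members were lower in the 4 comparisons in the order of the report (3.44%, 2.29%, 1.15% and 1.91%, against 5.28%, 6.61%, 0.708% and 0.769% of all genes) and 22, 24, 2 and 3 higher (8.4%, 9.16%, 0.763% and 1.15%, against 6.41%, 6.25%, 1.15% and 0.607%). With a 99% interval, the double library had 18 lower and 2 higher against Trp53f/f;Cre (6.87% and 0.763%, against 1.92% and 2.77% of all genes). Against Tut1f/f;Cre, 9 were lower and 3 higher (3.44% and 1.15%, against 1.48% and 1.4%). Scaled by library total, 18 were lower and 3 higher against Trp53f/f;Cre, and 12 and 5 against Tut1f/f;Cre. The shares of all genes under that scaling were not computed. With at least 20 reads over both libraries, 22 members were higher and 30 lower in Tut1f/f;Cre against the control (8.49% and 11.6%, against 11.7% and 14.2% of all genes), and 26 and 30 in Trp53f/f;Cre (9.59% and 11.1%, against 12.2% and 15.6%), so that lower members then outnumbered higher ones. The share of families lower in the double library was 98.5% and 97.0% with at least 1000 reads, and 55.0% and 72.5% on plain transcripts. The number of members called for Trp53 status by edgeR was 0 on plain transcripts and ranged from 0 to 50 when 1 library was left out, and where it was 50 (16.7% of members tested) 13.9% of all genes were called. The log2 fold change of Rpl3-ps1 was 2.70 on plain transcripts (edgeR adjusted p = 0.817) and ranged from 2.81 to 3.20 when 1 library was left out, 2.84 without the double library (edgeR adjusted p = 0.31). No member was called for Tut1 status by edgeR or DESeq2 under any setting tried. The cause of these changes was not tested.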
